A study of Mus musculus with 8 samples.

Results

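The enzymes, carriers of carbon and reducing power, and cofactors that make long-chain fatty acids in the liver were followed here across 8 arrays of male mouse liver RNA, as 10 genes chosen by name: Acly, Acss2, Acaca, Acacb, Fasn, Elovl6, Scd1, Me1, Pklr and Thrsp. They are 10 of the 23885 named genes that could be tested. Each was found through the accession its probe carries, matched to a mouse RefSeq symbol, and each has 1 probe, well above background on all 8 arrays. All mice were recombinant congenic males on the NZO (New Zealand Obese) background, made from NZO/HiBomDife and C57BL/6J, kept on a high-fat diet (45% fat) until week 5, and the labels also give 5 weeks as their age. The 2 genotypes, Ltg/NZO.5.3N/N (called NN below) and Ltg/NZO.5.3N/B (called NB), differ in a segment of 5.3 Mbp on chromosome 18, and no array carries a lean or chow-fed control. None of the 10 genes lies on that chromosome. NN was measured on arrays 1, 4, 6 and 7, and NB on arrays 2, 3, 5 and 8, each hybridised with Cy3-labelled RNA in 1 colour. Whether every array stands for its own animal is not said in the labels. A p-value below therefore reflects how far these samples differ from one another, and the small number of arrays limits the precision.

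De novo lipogenesis turns surplus carbohydrate into fatty acids. Citrate leaves the mitochondrion and is cleaved to acetyl-CoA, which is carboxylated to malonyl-CoA, condensed into palmitate with electrons from NADPH, and then elongated and desaturated. In liver the transcription factors SREBP-1c, which responds to insulin, and ChREBP, which responds to glucose, are known to drive these genes, and thyroid hormone and LXR receptors add to their control.

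All 8 arrays lay on 1 slide and were read in 1 scan. Each of the 4 slide columns paired an NN array with an NB array. The 75th percentile of the intensity, to which each array was scaled, ran from 445 on NN 6 to 584 on NB 2, and between 75.1% and 80.2% of probes were well above background. The 10 hepatocyte markers, checked against the liver label, were all measured, with Alb between 5.22 and 5.62 and Apoa2 between 8.67 and 8.92. These values, and all levels below, are log2 intensities relative to the array's 75th percentile, and levels of different genes are not compared because probes differ in brightness. In whole liver, fewer cells of a type and less RNA per cell cannot be told apart.

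The probes identify which transcripts were measured. The first 30 bases of those for the genes that carry the main contrasts below are shown here, as the array design gives them, in lower case throughout since no part is singled out. None of the 10 probes shares a run of 20 bases with any other probe of the array.
Fasn: gtgtgaagaagtgtctggactgtgtcattt
Scd1: ctgccatgaaaaccattgcaggaaaccttt
Me1: ggtgtgagctaaaagggtacagacttccta
Pklr: cttggcattgagatcccagcagagaaggtt
Thrsp: gcctgatgcgctgagcacatgaacctaact

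The promoters of Fasn, Pklr and Thrsp are shown because these genes stand at different ends of the covariation described below and each is a textbook promoter of hepatic lipogenesis. RefSeq sequence of GRCm38.p6 was at hand for 9 of the 10 genes (11 starts). Each line gives the 250 bases before the start, 5′ to 3′ on the gene's strand. Capitals mark the letters CCAAT, which read ATTGG on the other strand, and in Pklr also a match to the carbohydrate response element, the paired E-box that ChREBP and its partner Mlx bind.
Fasn, chr11:120824548-120824797, minus strand: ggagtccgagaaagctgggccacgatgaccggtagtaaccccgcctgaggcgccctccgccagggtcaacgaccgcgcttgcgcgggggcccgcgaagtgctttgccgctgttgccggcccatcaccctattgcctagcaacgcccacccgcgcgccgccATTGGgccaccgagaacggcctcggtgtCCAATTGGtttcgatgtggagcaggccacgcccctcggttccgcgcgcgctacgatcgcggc
Pklr, chr3:89136373-89136622, plus strand: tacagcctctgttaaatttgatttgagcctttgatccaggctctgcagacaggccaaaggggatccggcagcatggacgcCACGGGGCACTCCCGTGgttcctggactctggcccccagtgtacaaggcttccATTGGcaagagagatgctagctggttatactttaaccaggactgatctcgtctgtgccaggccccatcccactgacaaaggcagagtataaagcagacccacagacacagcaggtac
Thrsp, chr7:97417551-97417800, minus strand: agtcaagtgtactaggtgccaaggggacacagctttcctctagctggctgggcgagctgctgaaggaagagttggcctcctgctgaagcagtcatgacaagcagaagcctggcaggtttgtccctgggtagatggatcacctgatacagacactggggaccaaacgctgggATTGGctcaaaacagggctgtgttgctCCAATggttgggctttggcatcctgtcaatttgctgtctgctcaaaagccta

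CCAAT, the letters that NF-Y binds beside sterol elements, was present on either strand at 6 of the 11 starts, against 33.8% of all 32851 promoters of that length. These 6 starts belong to 6 of the 9 genes. In Fasn it lay 90, 62 and 59 bases before the start, the last of these overlapping on opposite strands, and in Thrsp 79 and 52 bases before it. The carbohydrate response element consensus, searched on both strands and added after the data were seen, was matched in 0.0974% of all promoters and in 1 of the 11 starts here, the downstream start of Pklr, 170 bases before it. The GC box GGGCGG was found at 3 of the 11 starts, in 3 of the 9 genes, against 32.7% of all promoters. The sterol element of the low-density lipoprotein receptor gene (0.0731% of all promoters), its looser form TCACNCCAC (1.05%), the E-box CACGTG (6.02%) and the DR4 repeat that LXR binds (0.0152%), all searched on both strands, were not found in these windows. These are matches of letters only, and say nothing of what binds there.

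The mean signal of every one of the 10 genes was lower in NB than in NN, by 0.12 to 0.75 on the log2 scale, and no single difference passed the test. The median difference of the 10 was -0.39, beside a median of -0.01 over all 42965 features tested. A difference below 0 was seen in 10 of 10 genes here and in 54.1% of all features, and only 1.43% of features lay below 0 by more than the median of the 10. The 10 genes vary together, so they are not 10 separate observations. They were also chosen with earlier results of these data known, so these shares describe them and are not a test. By limma's moderated test with Benjamini-Hochberg adjustment over all features, 0 of the 10 genes were called (adjusted p = 1.00 for each), against 0.00698% of all features, which is 3 features, all higher in NB. At an unadjusted p under 0.05 there were 2 genes, Me1 and Scd1, beside 1.69% of all features in either direction and 0.957% lower in NB. None of the 10 had all NB arrays below all NN arrays, a pattern found in 0.731% of features, nor all above, found in 0.426%. The median standard error was 0.22 for the 10 genes and 0.12 for all features, so these genes spread more between arrays than most.

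**Figure D1:**
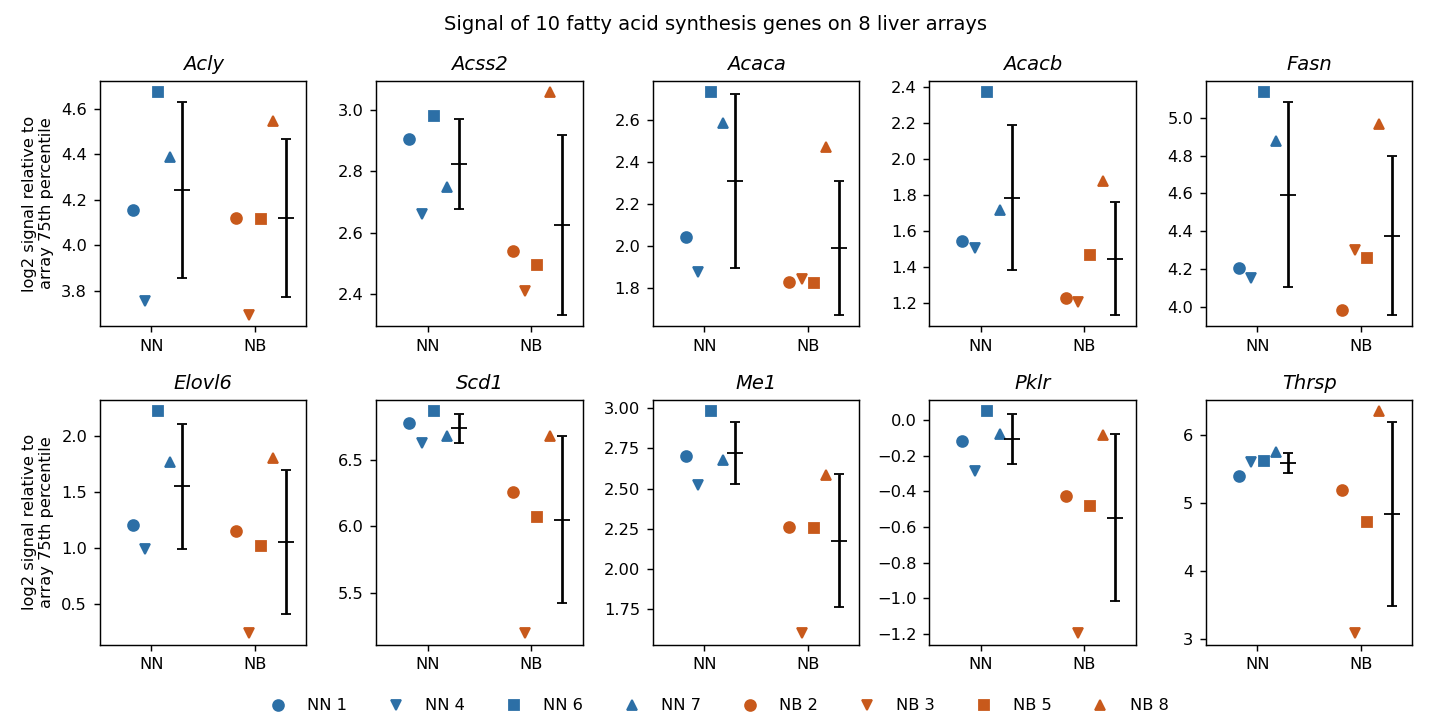
Log2 signal relative to the array's 75th percentile (vertical axes, scaled per gene) for 10 lipogenic genes, with 1 point per array, NN in blue and NB in orange, and the mean with its SD (n = 4) in black beside each group. NB 3 is lowest for 8 of the 10 genes and NN 6 is highest for 8, while NB 8 lies among the NN arrays for most of them.

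Acetyl-CoA for the pathway comes from ATP citrate lyase (Acly), which cleaves cytosolic citrate, and from the acetyl-CoA synthetase Acss2, which activates acetate. Acly read 4.16, 3.76, 4.67 and 4.39 on NN 1, 4, 6 and 7 and 4.12, 3.69, 4.12 and 4.55 on NB 2, 3, 5 and 8. The genotypes overlapped over nearly their whole range, NN 4 and NB 3 being low and NN 6 and NB 8 high. The difference, NB minus NN, was -0.12 (SE 0.22, 95% interval -0.64 to 0.39, n = 4 and 4, limma, adjusted p = 1.00), and it turned to 0.02 when either NB 3 or NN 6 was left out. Acss2 read 2.91, 2.66, 2.98 and 2.75 on NN 1, 4, 6 and 7 and 2.54, 2.41, 2.49 and 3.06 on NB 2, 3, 5 and 8. Here 3 NB arrays lay below every NN array, and NB 8 lay above all of them. Its difference was -0.20 (SE 0.15, 95% interval -0.54 to 0.14).

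Acetyl-CoA carboxylase makes malonyl-CoA, in the cytosol for synthesis (Acaca) and at the mitochondrial surface (Acacb), where malonyl-CoA restrains fatty acid entry by inhibiting carnitine palmitoyltransferase. Acaca read 2.05, 1.88, 2.73 and 2.58 on NN 1, 4, 6 and 7 and 1.83, 1.84, 1.83 and 2.47 on NB 2, 3, 5 and 8. NB 2, 3 and 5 were almost level and lay just under the lowest NN array, while NB 8 stood with NN 6 and NN 7. Acacb read 1.55, 1.51, 2.37 and 1.72 on NN 1, 4, 6 and 7 and 1.23, 1.21, 1.47 and 1.88 on NB 2, 3, 5 and 8. NN 6 was the highest by a wide margin, and NB 8 was second. The differences were alike in size, -0.32 for Acaca (SE 0.23, 95% interval -0.83 to 0.19) and -0.34 for Acacb (SE 0.22, 95% interval -0.84 to 0.16). Without NN 6 they were -0.18 and -0.14, and without NB 8 they were -0.48 for both.

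Fatty acid synthase (Fasn), the multifunctional enzyme that assembles palmitate, gave little contrast between the genotypes. It read 4.21, 4.15, 5.14 and 4.88 on NN 1, 4, 6 and 7 and 3.98, 4.30, 4.26 and 4.97 on NB 2, 3, 5 and 8. The arrays fell into 5 low ones, at 4.30 or less, and 3 high ones, NN 6, NN 7 and NB 8, at 4.88 or more, and both genotypes were present in each set. In deposited intensities the 3 high arrays read 14435 to 15646 and the 5 low ones 9184 to 10120. The 3 high arrays also had 75th percentiles of intensity of 445, 491 and 469, against 493 to 584 on the others, and they lay in columns 3 and 4 of the slide, where NB 5, a low array, also lay. The part of scaling and slide position in the pattern was not tested. Fasn's difference was -0.22 (SE 0.27, 95% interval -0.84 to 0.41), and it ran from -0.41 without NB 8 to -0.04 without NN 6.

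Palmitate is lengthened by the elongase Elovl6 and given its first double bond by stearoyl-CoA desaturase 1 (Scd1), whose product oleate is a major fatty acid stored in liver triglyceride. Elovl6 read 1.21, 0.99, 2.23 and 1.77 on NN 1, 4, 6 and 7 and 1.15, 0.24, 1.02 and 1.80 on NB 2, 3, 5 and 8. NB 3 stood below the rest and NN 6 above, with the other arrays of both genotypes interleaved, and the difference was -0.50 (SE 0.36, 95% interval -1.31 to 0.32). Scd1 read 6.77, 6.62, 6.87 and 6.68 on NN 1, 4, 6 and 7 and 6.26, 5.19, 6.07 and 6.68 on NB 2, 3, 5 and 8. The NN arrays lay within 1.19-fold of each other, whereas the NB arrays spanned 2.80-fold, and NB 2, 3 and 5 lay below all NN arrays. The mean Scd1 signal was 1.61-fold lower in NB, a log2 difference of -0.69 (SE 0.27, 95% interval -1.30 to -0.07, limma, unadjusted p = 0.0327, adjusted p = 1.00).

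Malic enzyme 1 (Me1) supplies NADPH while returning pyruvate from malate, and liver pyruvate kinase (Pklr) supplies pyruvate at the end of glycolysis. Me1 read 2.71, 2.52, 2.98 and 2.68 on NN 1, 4, 6 and 7 and 2.26, 1.60, 2.25 and 2.59 on NB 2, 3, 5 and 8. As for Scd1, NB 2, 3 and 5 lay below all NN arrays, and NB 8 lay inside the NN range. Its mean was 1.46-fold lower in NB, a log2 difference of -0.55 (SE 0.20, 95% interval reaching up to -0.09, limma, unadjusted p = 0.0235, adjusted p = 1.00), the smallest p of the 10 genes. Pklr read -0.12, -0.28, 0.05 and -0.08 on NN 1, 4, 6 and 7 and -0.43, -1.20, -0.48 and -0.08 on NB 2, 3, 5 and 8. The order of the arrays repeated that of Scd1 closely, and the difference was -0.44 (SE 0.21, 95% interval -0.92 to 0.04).

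Thrsp (thyroid hormone responsive, or Spot 14), a protein induced with the lipogenic enzymes by thyroid hormone and carbohydrate, had the largest difference of the 10 and the widest interval. It read 5.40, 5.61, 5.62 and 5.75 on NN 1, 4, 6 and 7 and 5.20, 3.09, 4.72 and 6.36 on NB 2, 3, 5 and 8. The NN arrays stayed within 1.28-fold of each other, and the NB arrays spanned 9.69-fold, from NB 3, the lowest of all 8, to NB 8, the highest of all 8. NB 3 was at 0.176 of the NN mean and NB 5 at 0.546. The difference was -0.75 (SE 0.57, 95% interval -2.05 to 0.54), and it was -0.17 (95% interval -0.96 to 0.63) without NB 3.

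One NB array thus carried much of the mean difference, and another carried none of it. Averaged over the 10 genes, the deviation from each gene's mean was -0.78 on NB 3, -0.24 on NB 5 and -0.20 on NB 2, but 0.41 on NB 8, and it was 0.55 on NN 6, 0.29 on NN 7, 0.06 on NN 1 and -0.08 on NN 4. All 10 genes were below their own mean on NB 2, NB 3 and NB 5, and none was on NN 6, NN 7 or NB 8. Without NB 3, 9 of the 10 genes remained lower in NB and their median difference was -0.23, beside -0.02 and 57.1% below 0 for all features in the same fit. Scd1 was then -0.40 (95% interval -0.75 to -0.05) and Me1 -0.35 (95% interval -0.67 to -0.03), and neither was called (adjusted p = 1.00). Without NN 6 the median was -0.22, also with 9 of 10 lower, and without NB 8 it was -0.54. For Acss2, Elovl6, Me1, Pklr, Scd1 and Thrsp the difference was nearest 0 without NB 3 (-0.13, -0.23, -0.35, -0.22, -0.40 and -0.17) and farthest from it without NB 8 (-0.34, -0.75, -0.68, -0.59, -0.90 and -1.26).

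Within the 4 slide columns, each of which pairs 1 array of each genotype by position, the count of genes lower in NB was 10 in column 1, 9 in column 2, 10 in column 3 and 3 in column 4. The column medians were -0.27, -0.53, -0.84 and 0.06, so that the column holding NN 7 and NB 8 did not show the difference. With the column as a block in the fit, Me1 had an unadjusted p of 0.0113, Scd1 of 0.0255 and Pklr of 0.0311 by limma. Each of these had an adjusted p of 1.00. The other genes of the 10 had unadjusted p values from 0.0719 (Elovl6) to 0.376 (Acly) by limma in that fit. The share of all features with p values as small was not taken with the block, so these values have no background to be read against. In the 2 rows of the slide 8 and 10 genes were lower, with medians of -0.15 and -0.61.

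**Figure D2:**
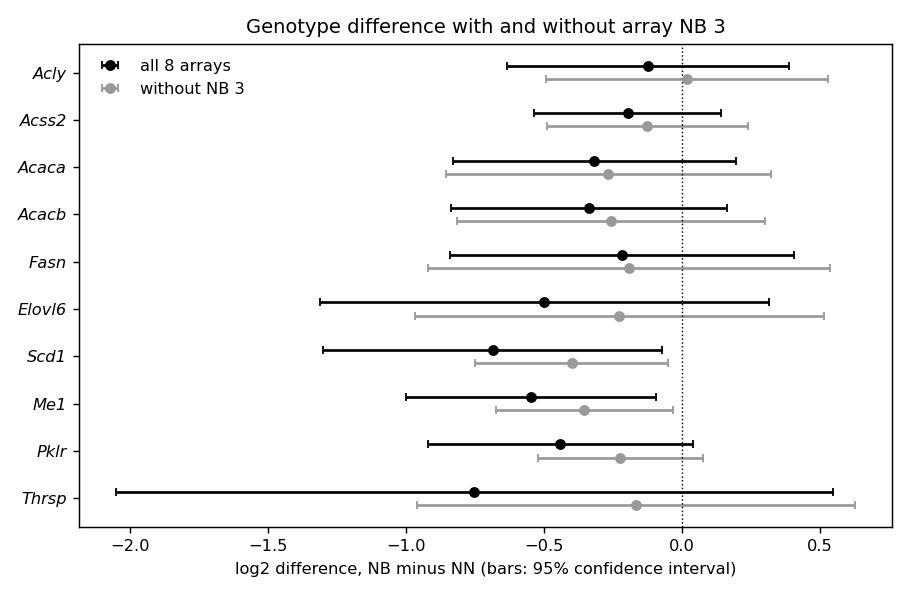
Log2 difference, NB minus NN (horizontal axis), with its 95% confidence interval from limma for 10 genes, over all 8 arrays in black and without NB 3 in grey. All 10 estimates lie below 0 with every array, the Thrsp estimate moves from -0.75 to -0.17 without NB 3, and only the intervals of Scd1 and Me1 leave out 0 in both fits.

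Each named factor that controls the pathway differed by less than the median of the 10 genes (-0.39), though Insig2 differed by more than Fasn, Acss2 and Acly. Srebf1, which encodes SREBP-1, read 4.58, 4.47, 4.54 and 4.35 on NN 1, 4, 6 and 7 and 4.28, 4.00, 4.38 and 4.62 on NB 2, 3, 5 and 8. NB 3 was again the lowest and NB 8 the highest, and the difference was -0.17 (SE 0.13). Mlxipl, which encodes ChREBP, lay between 4.50 and 4.85 with a difference of -0.08 (SE 0.09), and the LXR gene Nr1h3 between 4.04 and 4.27 with a difference of -0.05 (SE 0.08). Insig2, whose protein retains SREBP in the endoplasmic reticulum, had a difference of -0.26 (SE 0.20), and Mid1ip1, the Thrsp paralogue whose protein promotes polymerisation of acetyl-CoA carboxylase, -0.15 (SE 0.22). Mid1ip1 turned to 0.01 without NB 2 and 0.00157 without NN 6. Rxra, a partner of nuclear receptors including LXR, had -0.08 (SE 0.09). Of 24 regulators measured, 0 were called, 14 were below 0, and their median difference was -0.01. The 24 differences were of both signs, so this median does not measure how far the regulators differed.

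Genes that feed the pathway were mostly below 0 as well, by less. Of 22 genes of citrate, glucose and NADPH supply, 20 were below 0 and 0 were called, with a median of -0.10. Pdha1, a subunit of pyruvate dehydrogenase, had all 4 NB arrays (3.27 to 3.48) below all 4 NN arrays (3.49 to 3.57). It was the only 1 of the 22 with this pattern, which 0.731% of all features showed. NB 8 (3.482) and NN 7 (3.492) nearly met. The difference of Pdha1 was -0.17 (SE 0.07, limma, adjusted p = 1.00). Ketohexokinase (Khk), which commits fructose, had -0.26 (SE 0.13), and Mdh1, the cytosolic malate dehydrogenase that makes the substrate of Me1, -0.17 (SE 0.08).

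Among 24 measured genes of elongation, desaturation and other acyl chain steps, 16 were below 0 and 0 were called, with a median of -0.04. Scd4, another stearoyl-CoA desaturase gene, read 2.60, 2.69, 2.97 and 2.46 on NN 1, 4, 6 and 7 and 2.15, 0.92, 1.93 and 2.59 on NB 2, 3, 5 and 8. Its pattern was that of Scd1, with NB 3 lowest and NB 8 inside the NN range, and its difference was -0.78 (SE 0.31, limma, unadjusted p = 0.0342, adjusted p = 1.00). Elovl5, an elongase of polyunsaturated acids, had -0.26 (SE 0.17) and Acss3, a mitochondrial acyl-CoA synthetase, -0.22 (SE 0.15). Of 15 genes of glycerolipid assembly and other SREBP-1c and ChREBP targets, 13 were below 0, with a median of -0.05. Among them Agpat2, which acylates lysophosphatidic acid, had -0.11 (SE 0.07), Gpam, which starts glycerolipid synthesis, -0.10 (SE 0.11), and Dgat1, which makes triglyceride, -0.07 (SE 0.08).

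Sterol synthesis, the pathway under SREBP-2, ordered the arrays in another way. Of its 20 genes 18 were above 0 and 2 below, with a median of 0.18 and 0 called. That median rests on single arrays, being 0.01 without NN 4, 0.03 without NN 1 or NB 8 and 0.10 without NB 3, but 0.43 without NB 2 and 0.50 without NN 6. Msmo1, a sterol C4 methyl oxidase, read 3.74, 3.47, 5.19 and 4.75 on NN 1, 4, 6 and 7 and 3.65, 5.20, 4.85 and 5.34 on NB 2, 3, 5 and 8, a difference of 0.48 (SE 0.47). NN 1, NN 4 and NB 2 were low and the other 5 arrays high, a split that crosses the genotypes. The low arrays also had the highest 75th percentiles of intensity, 516 to 584 against 445 to 514 on the others. They lay in columns 1 and 2 of the slide, where NB 3, a high array, also lay. The part of scaling and slide position in this split was not tested. Nsdhl, the next enzyme in that demethylation, had 0.36 (SE 0.40), and Acat2, which condenses acetyl-CoA, -0.10 (SE 0.08). On NB 3, the mean deviation was 0.32 for the 20 sterol genes and -0.78 for the 10 fatty acid genes, whereas on NN 6 it was 0.70 and 0.55 and on NB 8 0.60 and 0.41.

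**Figure D3:**
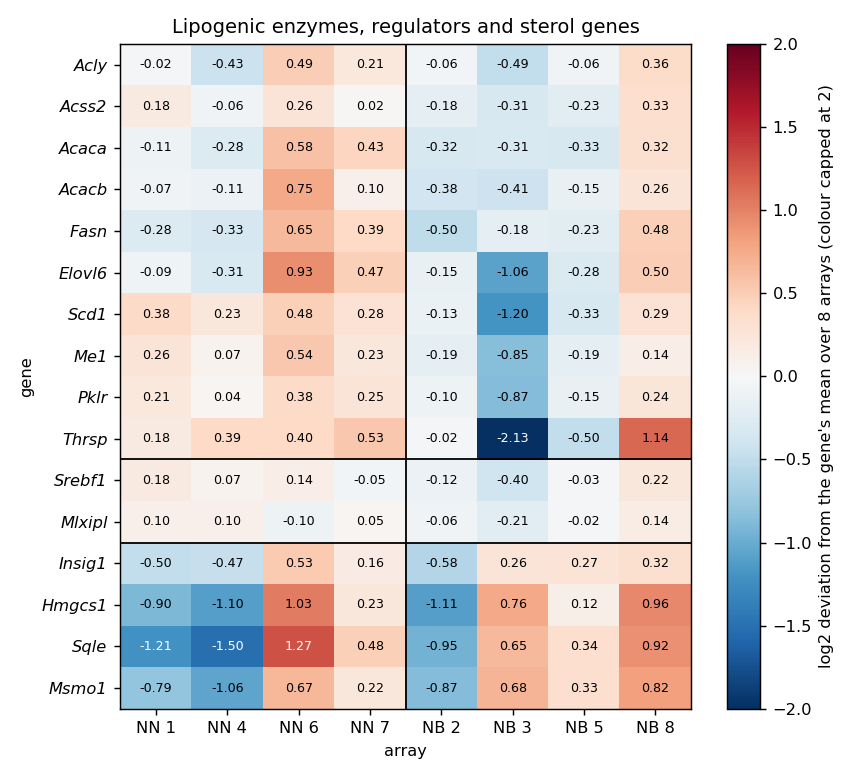
Log2 deviation from each gene's mean over the 8 arrays (colour, capped at 2) for the 10 lipogenic genes (top), Srebf1 and Mlxipl (middle) and, at the bottom, the SREBP regulator Insig1 and 3 sterol synthesis genes, with NN arrays on the left and NB arrays on the right. On NB 3 the lipogenic genes are below their means, down to -2.13 for Thrsp, while the bottom 4 genes are above theirs, and on NN 6 and NB 8 all of both sets are above.

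Genes of fasting, the daily clock and other liver cell types were read beside these values, because feeding and time of day are known to move lipogenic genes, and their part in the differences was not tested. Of 18 genes of fasting and PPARalpha response 14 were below 0, with a median of -0.10 and 0 called. G6pc, the glucose-6-phosphatase of glucose output, read 4.50, 5.57, 5.17 and 5.17 on NN 1, 4, 6 and 7 and 4.09, 3.60, 4.72 and 5.09 on NB 2, 3, 5 and 8, a difference of -0.73 (SE 0.34, limma, adjusted p = 1.00). It was lowest on NB 3, as were 8 of the 10 lipogenic genes. Tat, the tyrosine aminotransferase, had -0.21 (SE 0.20). Of 15 clock genes 9 were below 0, with a median of -0.01 and 0 called. Nfil3, a repressor among the clock outputs, had all NB arrays (0.90 to 1.46) below all NN arrays (1.55 to 1.68). It was the only 1 of the 15 with this pattern, which 0.731% of all features showed. The difference of Nfil3 was -0.40 (SE 0.12, limma, unadjusted p = 0.00942, adjusted p = 1.00). The core clock gene Arntl had -0.29 (SE 0.14) and Per3 0.17 (SE 0.13).

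Most markers of resident and recruited macrophages lay above 0, but their values did not simply follow the genotype. Of 10 Kupffer cell markers 9 were above 0, with a median of 0.18 and 0 called. Their mean deviation was -0.30 to -0.20 on NN 1, NN 4 and NB 2, and 0.10 to 0.21 on the other arrays. These are the arrays that were low and high for Msmo1, a split that crosses the genotypes. The SD of that mean deviation within a genotype was 0.22, above the median difference. Clec4f had 0.18 (SE 0.09), Adgre1 0.22 (SE 0.11) and Folr2 0.13 (SE 0.10). Of 7 recruited macrophage markers 6 were above 0 with a median of 0.23, which was 0.10 without NB 5, 0.12 without NN 4 and 0.10 with the normexp background correction. Their mean deviation ran from -0.22 to -0.02 on NN arrays and from -0.11 to 0.30 on NB arrays, the 2 highest being NB 3 (0.30) and NB 5 (0.19). Among these Spp1 had 0.47 (SE 0.22), Ly6c2 0.34 (SE 0.19) and Cd68 0.23 (SE 0.15). Hepatocyte markers gave 6 of 10 below 0 with a median of -0.03, and mean deviations of -0.06 to 0.06 on NN and -0.11 to 0.08 on NB arrays, with Cps1 at -0.30 (SE 0.13), Alb at 0.18 (SE 0.09) and Apoa2 at -0.08 (SE 0.08).

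Of the remaining lists none had a called gene. Adipocyte markers gave 4 of 9 below 0 with a median of 0.01, their mean deviation running from -0.26 to 0.27 on NN and from -0.14 to 0.20 on NB arrays. Adipoq, the defining adipocyte gene, did not pass the background filter, Plin1 had a difference of 0.24 (SE 0.12), Lep -0.27 (SE 0.17) and Adig -0.12 (SE 0.16). Stellate cell markers gave 2 of 8 below 0 with a median of 0.10, and Lrat had 0.14 (SE 0.15), Col1a2 0.12 (SE 0.19) and Col1a1 0.16 (SE 0.26). Endothelial (3 of 6), cholangiocyte (4 of 5) and lymphocyte (3 of 6) markers below 0 had medians of -0.02, -0.02 and 0.00. In these lists Pecam1 had -0.11, Stab2 0.09, Kdr -0.05, Cftr -0.07, Epcam 0.05, Sox9 -0.06, Cd3e 0.16 and Cd3g 0.06, with standard errors of 0.08 to 0.18.

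Across the 8 arrays the lipogenic genes moved together. All 45 pairs had a Pearson r above 0, with a median of 0.81 and a range from 0.44 to 0.99. By an exact two-sided permutation test with Benjamini-Hochberg adjustment over the 45 pairs, 33 had an adjusted p under 0.05 by r, 34 by Spearman's rho and 27 by both. No like count was made over pairs of other genes. High r was common on these arrays: 5.17% of 23014 named genes had a higher r with Fasn than Acly did (0.81). For Scd1 (0.44) that share was 23.4%. How far the pair counts are particular to these genes was therefore not tested. Pooled arrays can correlate through the genotype, so r was also taken on deviations from the genotype means, where its median was 0.78. There 24 pairs passed, but the permutation treated the centred values as independent, which they are not. That count is therefore too generous to be read as a test. Without NB 3 the median r was 0.79 and 17 pairs passed, and without NN 6 it was 0.78 and 9 passed. Leaving out for each pair the 2 arrays farthest from the median of the first gene gave a median r of 0.68, and 18 of the 33 pairs fell under 0.70 without the 2 arrays farthest on one or the other gene, so these relations rest in part on such arrays.

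**Figure D4:**
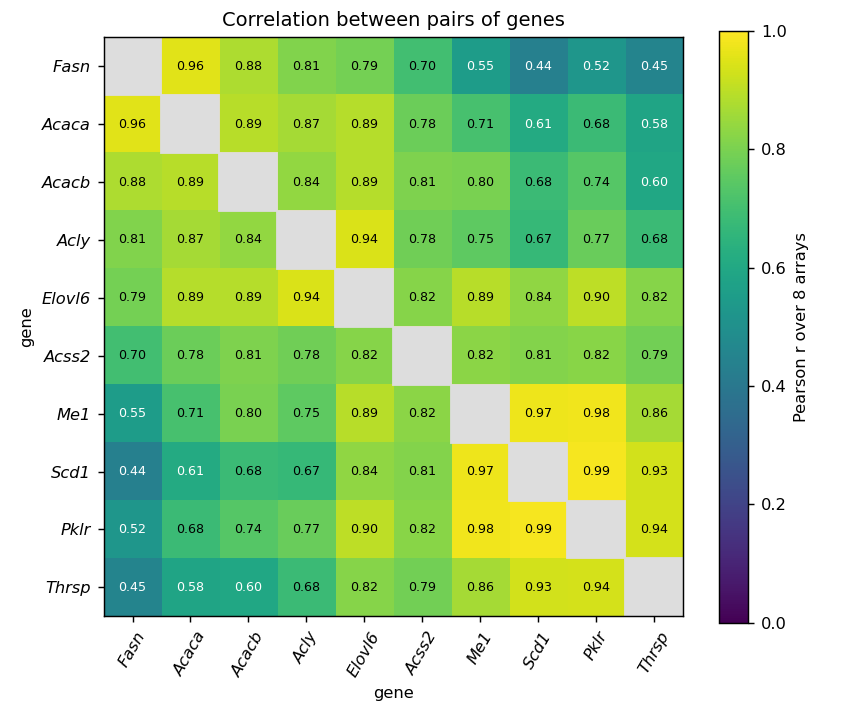
Pearson r over 8 arrays (colour and numbers) for each pair of the 10 genes, ordered so that genes of like pattern stand together. Me1, Scd1, Pklr and Thrsp form a corner of values from 0.86 to 0.99, Fasn and Acaca reach 0.96, and Fasn has its lowest values, 0.44 and 0.45, with Scd1 and Thrsp.

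The closest relations joined Scd1, Me1 and Pklr. Scd1 with Pklr had r = 0.99 and rho = 0.90 (exact permutation adjusted p = 0.00223 and 0.0155), and r was 0.94 without NB 3 and 0.92 without NB 3 and NB 5. Me1 with Pklr had r = 0.98 and rho = 0.93 (exact permutation adjusted p = 0.00223 and 0.0143), with 0.95 after NB 3 and NN 6 were left out. Me1 with Scd1 had r = 0.97 and rho = 0.98 (exact permutation adjusted p = 0.00112 and 0.00893), with 0.96 after the same 2 arrays were left out. Thrsp joined this set at r = 0.93 with Scd1, 0.94 with Pklr and 0.86 with Me1. Without NB 3 these were 0.71, 0.71 and 0.52. Without NB 3 and NB 5, r fell to 0.39 with Scd1 and 0.50 with Pklr, while Scd1 with Thrsp was 0.87 without NB 3 and NB 8. The relations of Thrsp thus rest in part on single NB arrays.

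Acly and Elovl6 ranked the 8 arrays in the same order. Their r was 0.94 and rho 1 (exact permutation adjusted p = 0.00112 and 0.00223), and r was 0.89 without NB 3 and NN 6. Fasn and Acaca had r = 0.96 and rho = 0.71 (exact permutation adjusted p = 0.0128 and 0.0700), with r = 0.91 without NN 6 and NB 8. Since both genes place NN 6, NN 7 and NB 8 apart from the other 5 arrays, that r sets 3 arrays against 5, and a relation inside either set was not tested. Fasn was weakly related to Scd1 (r = 0.44, rho = 0.45, exact permutation adjusted p = 0.297 and 0.274) and to Thrsp (r = 0.45, rho = 0.52, exact permutation adjusted p = 0.284 and 0.206). NB 3, where Fasn was 0.10 below the mean of the other NB arrays and Scd1 1.14 below, set these genes apart, and without it r was 0.60 for Fasn with Scd1 and 0.64 for Fasn with Thrsp.

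**Figure D5:**
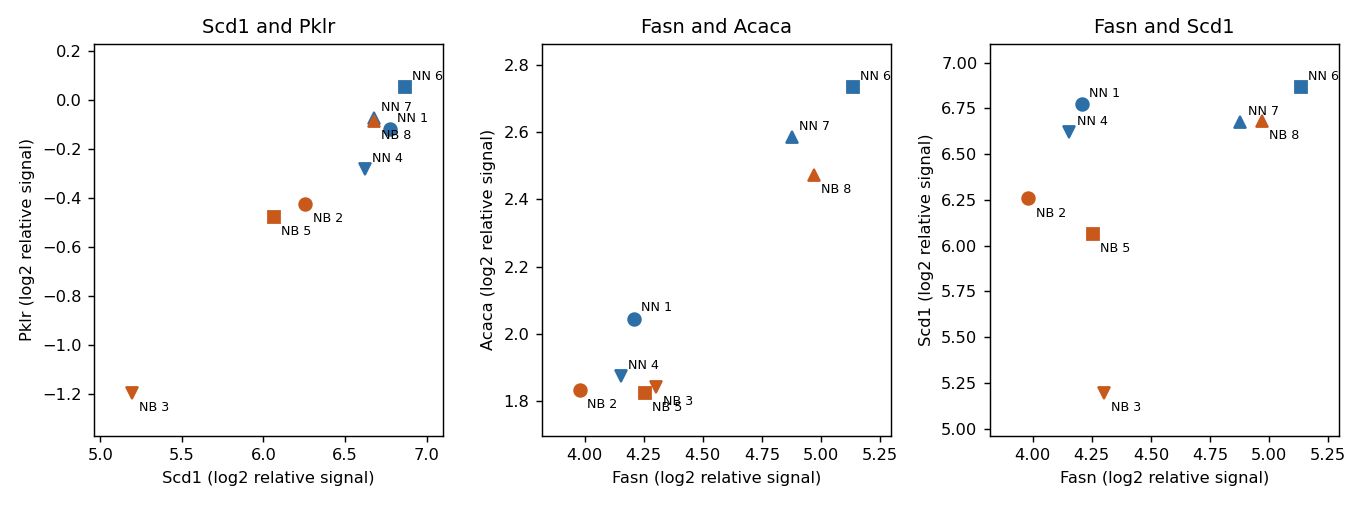
Log2 relative signal of 3 pairs of genes, with 1 labelled point per array, NN in blue and NB in orange. Scd1 and Pklr (left) fall along a line from NB 3 to NN 6 (r = 0.99), Fasn and Acaca (middle) split into 3 high and 5 low arrays, and in Fasn and Scd1 (right) NB 3 lies below the other arrays.

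The drop on NB 3 was uneven across the enzymes. Relative to the mean of the other 3 NB arrays, NB 3 was lower by 2.34 for Thrsp, 1.14 for Scd1, 1.09 for Elovl6, 0.87 for Pklr, 0.77 for Me1 and 0.57 for Acly, and by 0.32 for Acacb, 0.29 for Acss2, 0.20 for Acaca and 0.10 for Fasn. In deposited intensities Thrsp read 4362 on NB 3 against 13009 to 38610 on the other NB arrays, and Scd1 read 18805 against 33059 to 48070. Fasn read 10120 on NB 3, inside the range of 9226 to 14689 of the other NB arrays.

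Srebf1 and Mlxipl transcripts were compared with the 10 genes in 20 relations. With Srebf1 all 10 had r above 0, with a median of 0.79, and 5 passed the exact permutation test adjusted over the 20, namely Scd1 (r = 0.90), Pklr (0.89), Thrsp (0.88), Me1 (0.87) and Acss2 (0.86), each at an adjusted p of 0.0394. None passed by rho (lowest adjusted p = 0.214 by an exact permutation test), and of the 5 only Acss2 and Scd1 stayed above 0.70 without the 2 arrays farthest on the lipogenic gene, at 0.80 and 0.74. Without NB 3 the median r was 0.59. Of the 20 relations 0 passed when NN 1, NB 2, NB 3, NN 4, NB 5 or NB 8 was left out, or on deviations from the genotype means, while 5 passed without NN 7 and 11 without NN 6. With Mlxipl the median r was 0.49 and only Thrsp passed (r = 0.81, exact permutation adjusted p = 0.0394), falling to 0.29 without NB 3 and NB 8. Without NB 3 the median r with Mlxipl was 0.00, and without NN 6 it was 0.84.

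Among 23014 named genes the 5 with the highest r with Fasn, the lipogenic genes left out of the ranking, were Cyb5b (0.99), which encodes the outer mitochondrial cytochrome b5, Gmpr2 (0.98), a guanosine monophosphate reductase, Nol12 (0.98), Pdzd11 (0.97) and the hypoxia-inducible factor gene Hif1a (0.96). Cyb5b read 1.51, 1.54, 1.90 and 1.77 on NN 1, 4, 6 and 7 and 1.43, 1.61, 1.58 and 1.81 on NB 2, 3, 5 and 8. It placed NN 6, NN 7 and NB 8 above the other 5 arrays, as Fasn did. The 5 lowest were Gm33645 (-0.98), Olfr332 (-0.97), Fgf12 (-0.97), Tmem216 (-0.97) and Mpped1 (-0.97). These are descriptions over 8 arrays that share a slide and a scale, with no test. Of the 23014 genes, 0.0869% had a higher r with Fasn than Acaca did, 2.24% than Acacb, 5.17% than Acly and 6.05% than Elovl6, but 17.7% had a higher r than Me1, 19.1% than Pklr, 22.6% than Thrsp and 23.4% than Scd1.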

How the data were processed

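Liver RNA of 4 NN and 4 NB samples was hybridised in 1 colour to a custom Agilent array. The deposited scanner files hold intensity values per spot: per the file headers, Agilent Feature Extraction 11.5.1.1 (9.1 per the submitters' processing notes) subtracted background and detrended each array, with no normalization between arrays. Per the labels' protocols, TRIzol was used for RNA, and samples of high integrity were taken forward. Control and outlier spots were left out, spots of 1 probe averaged, log2 taken, and each array's 75th percentile subtracted. The deposited value table, in linear intensity with the same quantiles on all arrays and no stated scale, was taken to log2 as an alternative.

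Of 60273 probes 31060 matched a RefSeq symbol, covering 26694 genes; each gene is shown by its brightest probe. Features well above background on at least 4 arrays were kept. NB was compared with NN with limma 3.58.1 in R 4.3.3 (lmFit, eBayes), Benjamini-Hochberg adjusted at 0.05 over all features, with no covariate. Correlations used exact two-sided permutation tests. The fit was also run on simulated arrays with each gene's mean and spread, into which known changes were put. It called 14% of log2 changes of 0.5 and 78% of changes of 1, with 10 false calls. Changes of 0.5 were thus mostly missed. No genes of chromosome 18 are named, and some genes the rule selects are not reported here. Each list contributes its called genes, otherwise the 3 with the smallest p; Srebf1, Mlxipl, Nr1h3, Insig2 and Mid1ip1 were named whatever their p, and the 5 genes of highest and of lowest r with Fasn. The genes and lists were chosen with earlier results of these data known. Alternatives were other background correction, scaling, probe filters and summaries, array weights, a trended robust variance, slide column or row, a threshold of 0.1, and each array left out. Values without NB 3 for each gene, Scd1 and Thrsp as reference genes for likeness, and the carbohydrate response element were added after the data were seen.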

Additional observations from a re-analysis of the deposited data

Results flagged for a closer look

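In 6 of 132 sets of 4 arrays examined (4.55%, where chance alone marks about 5%), 1 array stood apart from the other 3 of its genotype by Dixon's test. Only 1 of these concerned a lipogenic enzyme: Acaca read 2.47 on NB 8 and 1.83 to 1.84 on the other NB arrays. Among regulators, Insig2 read 5.09 on NB 2 against 4.29 to 4.42 on the other NB arrays, and Rxra read 5.56 on NB 2 against 5.83 to 5.84. Per3 read -2.27 on NN 4 and -2.08 on each of the others. Cps1 read 5.54 on NB 3 against 5.92 to 5.98, and the Kupffer cell marker Folr2 read 2.13 on NB 2 against 2.39 to 2.43. NB 3, lowest for 8 of the 10 lipogenic genes, was not marked for any of them, since the NB arrays also spread at their upper end.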

How the results depend on the processing

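No paired analysis was possible because the labels' sample numbers run through both genotypes and no number is shared. The slide column, which holds 1 array of each genotype, was used as a block instead, and 0 of the 10 genes were called. Of 200 recomputed differences of the 10 genes (20 alternatives each), 198 kept their direction and their side of the threshold. Part of that count was fixed beforehand. Each gene has 1 bright probe, so the probe filters, probe averaging, the trended robust variance and the slide blocks returned the same difference. The lowest adjusted p by limma under any alternative was 0.9999, so the side of the threshold was hardly put to the test. Acly ran from -0.287 to 0.0189 with 1 array left out, turning to 0.0171 without NB 3 and 0.0189 without NN 6. No gene of the 10 was called under any alternative. The median difference ran from -0.54 (without NB 8) to -0.22 (without NN 6). When a gene's probes were averaged, 5 features were called in place of 3. Pairs with an adjusted p under 0.05 numbered 33, and 9 to 34 with 1 array left out (9 without NN 6, 17 without NB 3). Relations with the regulators numbered 6 as reported, and 0 under quantile normalization or the value table of the authors. On deviations from the genotype means 0 passed, and 3 passed with the slide column effect removed. Both of these counts treat centred values as independent, which they are not, so they are only a rough guide. With 1 array left out 0 passed in 6 of the 8 cases, 5 without NN 7 and 11 without NN 6. The median r with Srebf1 was 0.59 without NB 3. The cause was not tested.

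Of 920 values of other named genes 15 changed sign. With 1 array left out, Adig ran from -0.207 to 0.0213, Cd3g from -0.0026 to 0.114, Cftr from -0.160 to 0.0142, Col1a1 from -0.0732 to 0.317, Col1a2 from -0.0448 to 0.239, Epcam from -0.0116 to 0.128, Mid1ip1 from -0.290 to 0.00922 and Sox9 from -0.209 to 0.0612. The normexp correction gave -0.0236 for Cd3g and -0.00777 for Epcam, and array weights gave 0.0709 for Sox9. The median standard error was 0.22 for the 10 genes, and 4 arrays a genotype limit the precision.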

Other observations

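With Scd1 as the reference gene, chosen after the data were seen, the most alike of 23014 named genes outside the 10 were A4gnt (r = 0.99), which encodes a glycosyltransferase, and the desaturase gene Scd4 (0.99). Scd4 shares the family of Scd1, and their probes hold no run of 20 bases in common. A4gnt read 0.98, 0.67, 0.94 and 0.90 on NN 1, 4, 6 and 7 and 0.53, -0.69, 0.29 and 0.95 on NB 2, 3, 5 and 8, so NB 3 was lowest and NB 8 lay among the NN arrays. At the opposite end stood Abraxas1 (-0.97), then Mir106b (-0.945) and the lipoprotein lipase gene Lpl (-0.942). Lpl read 1.27, 1.71, 1.40 and 1.73 on NN 1, 4, 6 and 7 and 1.68, 2.61, 2.14 and 1.48 on NB 2, 3, 5 and 8, highest on NB 3. Without NB 3 these r were 0.95 for A4gnt, 0.95 for Scd4 and -0.84 for Lpl. With Thrsp as the reference, the highest were Nlk (0.97) and Apoa5 (0.97), an apolipoprotein that lowers plasma triglyceride, at 0.94 and 0.86 without NB 3. Apoa5 read 6.31 on NB 3 and 6.88 to 7.21 on the other arrays. Of the named genes, 0.00869% had a higher r with Scd1 than Pklr did, and 0.0217% than Me1 did. For the other lipogenic genes that share ran from 0.0912% (Thrsp) to 12.8% (Fasn). It was 3.10% for Acacb, 3.40% for Acly and 5.12% for Acaca. These are descriptions over 8 arrays with no test.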
